A study of Sus scrofa with 32 samples.

Results

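The genes described here were grouped around the sulfation and desulfation of steroids, but not all of them act on steroids themselves. 10 genes were listed by symbol: the sulfotransferases SULT2B1, SULT1E1, SULT1A1, SULT1A3, SULT1B1 and SULT1C4, the steroid sulfatase STS, the sulfate donor synthases PAPSS1 and PAPSS2, and the donor transporter SLC35B2. Only 4 of the 10 symbols could be paired with 1 of the 25322 Ensembl gene identifiers counted: SULT2B1 (ENSSSCG00000023280), SULT1A3 (ENSSSCG00000021557), PAPSS2 (ENSSSCG00000010437) and SLC35B2 (ENSSSCG00000001702). SULT1E1, SULT1A1, SULT1B1, SULT1C4, STS and PAPSS1 were skipped and are not analysed here. The balance of sulfation against desulfation, which needs STS, and the balance of the PAPS synthases, which needs PAPSS1, were therefore not analysed either. RNA came from the testis of 32 male pigs, Danish crosses of Duroc with Landrace and Yorkshire, killed at about 100 kg. The submitters sorted 31 of them into a High or a Low AS group, where AS stands for androstenone and skatole. Pigs ate either a control feed or a feed containing 15% chicory for the last 3 days. There were 10 High AS control pigs, 7 High AS chicory pigs, 7 Low AS control pigs and 7 Low AS chicory pigs, and 1 chicory pig without an AS group entered only the levels and correlations. Androstenone was 2.59 ± 1.99 mg/kg (SD, n = 17) in High AS pigs and 0.54 ± 0.405 mg/kg (SD, n = 14) in Low AS pigs. All pigs were separate animals, but only 14 sows bore them, and 7 sows had offspring in each AS group.

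Sulfation adds a sulfate group to a steroid, which makes it water-soluble, keeps it from its receptor and lets it travel in blood or be stored. Cytosolic sulfotransferases (the SULT enzymes) take the sulfate from PAPS, the activated donor, which PAPSS1 and PAPSS2 make from inorganic sulfate and ATP. SLC35B2 carries PAPS from the cytosol into the Golgi, where other sulfotransferases modify proteins and sugar chains, and STS removes sulfate from steroids again. The boar testis is known for making large amounts of steroid sulfates in its Leydig cells, together with androstenone, the pheromone steroid that causes boar taint.

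Counts in genes ranged from 1855174 to 20349500 per pig. The library names separated 24 libraries, called plain here (1855174 to 5993637 counts), from 8 numbered ones (10585625 to 20349500 counts), and High AS pigs supplied 6 of the 8 numbered ones. The remaining 2 numbered libraries were of Low AS control pigs, so no Low AS chicory library was numbered. Lane 7 held 4 of the numbered libraries, all of High AS pigs, and lane was not a term in the main models. Library set was a term in each main model, and correlations were computed within each set. Of 11 listed Leydig cell markers 7 passed the filter on low counts and none of these was at 0 in any pig; INSL3 ranged from 68.1 to 2590 CPM (reads scaled to the depth of each library), and all 12 listed elongating spermatid markers passed as well. The low count of SULT2B1 aside, every level below is in CPM after TMM scaling, edgeR's correction for library composition. CPM is not corrected for transcript length, so levels are compared between pigs and not between genes.

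SULT2B1, which sulfates cholesterol and some hydroxysteroids, was barely detected. Its reads summed to 26 over 32 pigs, or 0.128 CPM (95% exact Poisson interval 0.0839 to 0.188). Only 16 pigs had any read of it, and no pig had more than 4. High AS pigs gave 17 reads (0.135 CPM, interval 0.0789 to 0.217) and Low AS pigs 9 reads (0.122 CPM, interval 0.056 to 0.232), so no difference was detectable at this depth. SULT2B1 did not pass the filter on low counts and entered no test. The intervals cover counting error only.

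SULT1A3 belongs to the phenol sulfotransferases, which act on catecholamines and phenols; the RefSeq table for pig Sscrofa11.1 gives SULT1A1 as a synonym of this entry, so a pig SULT1A1 could not be told from it. Its level ranged from 1.82 to 24.8 CPM over 32 pigs, a 13.6-fold range resting on 4 to 102 reads per pig. In Low AS pigs the lowest, median and highest values were 2.83, 4.22 and 24.8 CPM among 12 plain libraries, and the 2 numbered libraries held 5.37 and 6.15 CPM. In High AS pigs they were 1.82, 4.26 and 12.8 CPM among 11 plain libraries and 1.93, 3.33 and 6.13 CPM among 6 numbered ones. The AS groups overlapped from 2.83 to 12.8 CPM. A counting error of 21.3% at the median of 22 reads limits what a single pig's value can show.

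Most pigs had a low SULT1A3 level and a minority a level several times higher. Low AS control replicate 5 held 24.8 CPM, Low AS chicory replicate 7 held 15.1 CPM and High AS chicory replicate 4 held 12.8 CPM. These 3 pigs came from 3 different groups and carried 1.04, 0 and 2.29 mg/kg androstenone. The 2 pigs with the most androstenone, High AS control replicate 10 (7.77 mg/kg) and High AS chicory replicate 3 (5.9 mg/kg), had 2.47 and 1.82 CPM, near the bottom of the range.

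PAPSS2, the synthase whose loss in humans lowers the sulfation of the androgen precursor DHEA, was measured on 38 to 1242 reads per pig. High AS pigs averaged 47.2 ± 19.6 CPM (SD, n = 17) and Low AS pigs 35.9 ± 21.6 CPM (SD, n = 14). High AS control pigs had a lowest, median and highest value of 33.1, 41.2 and 81.0 CPM, and High AS chicory pigs 16.9, 43.2 and 81.4 CPM. Low AS control pigs had 14.1, 28.6 and 96.8 CPM, and Low AS chicory pigs 14.8, 38.2 and 62.2 CPM. No High AS control pig was below 33 CPM, while the highest value of all came from a Low AS pig, control replicate 5, and the groups overlapped. The next highest Low AS control pig was at 35.6 CPM.

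SLC35B2 was measured on 19 to 127 reads per pig, and its level followed the library set. Plain libraries held 15.4 ± 4.92 CPM (SD, n = 24; 8.43 to 26.7) and numbered ones 5.95 ± 1.44 CPM (SD, n = 8; 3.95 to 8.19), with no overlap. In the model with AS group and diet the numbered libraries were lower by 1.29 on the log2 scale (SE 0.19; edgeR quasi-likelihood test, adjusted p = 1.7e-05, n = 31), a comparison in which 30.5% of all tested genes passed. Since most numbered libraries were of High AS pigs, SLC35B2 is best read within a set. Among plain libraries High AS pigs had 13.9 ± 3.71 CPM (SD, n = 11) and Low AS pigs 16.9 ± 5.74 CPM (SD, n = 12). Among numbered libraries it was 5.99 ± 1.24 CPM (SD, n = 6) against 3.95 and 7.65 CPM in the 2 Low AS pigs. The library set difference did not pass for PAPSS2 (-0.21, SE 0.28, edgeR adjusted p = 0.601) or SULT1A3 (-0.56, SE 0.36, edgeR adjusted p = 0.247).

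**Figure D1:**
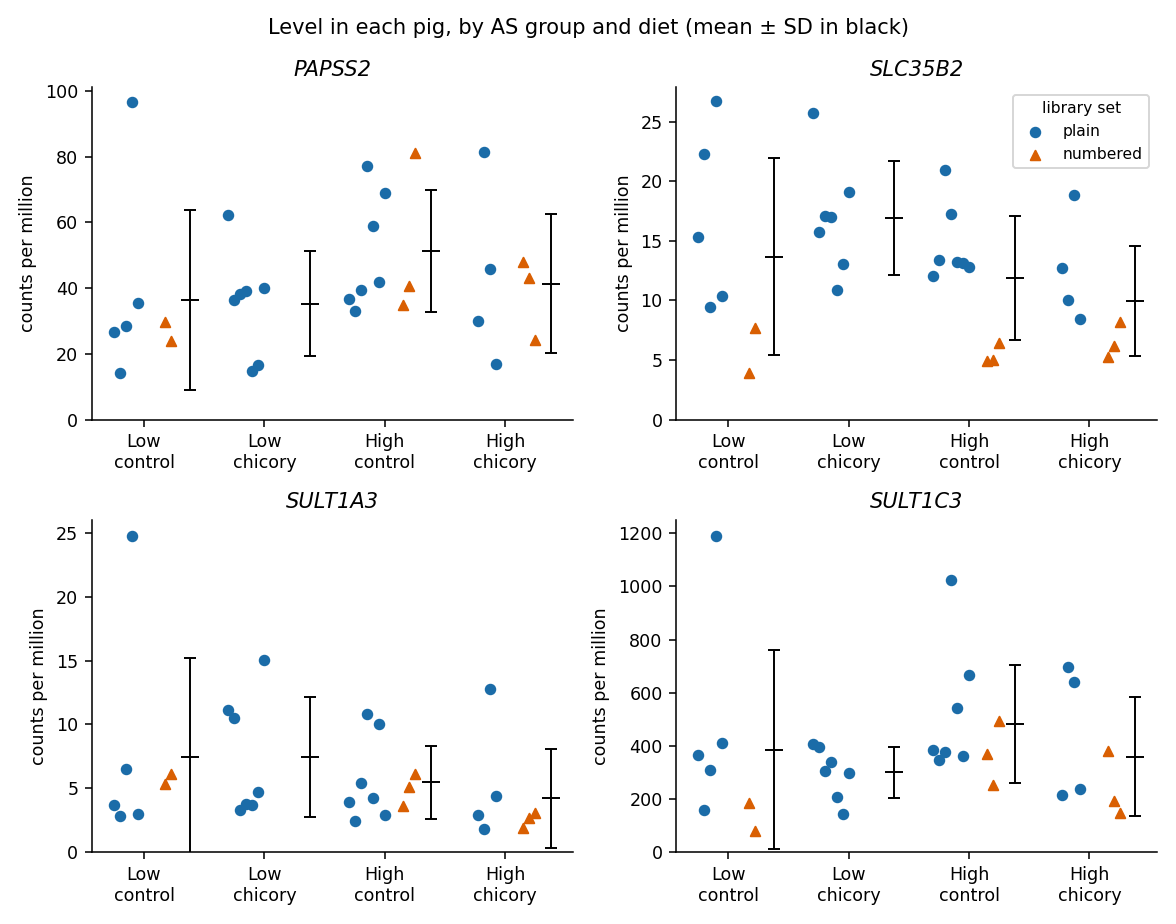
Level of PAPSS2, SLC35B2, SULT1A3 and SULT1C3 in CPM (y axis, linear from 0) in each of 31 pigs by AS group and diet (x axis); circles are plain and triangles numbered libraries, and black bars give mean ± SD of each group, ending at the axis where they would go below 0. The topmost PAPSS2, SULT1A3 and SULT1C3 points are 1 Low AS control pig (96.8, 24.8 and 1191 CPM), and all SLC35B2 triangles lie at or below 8.19 CPM, under every circle.

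Of 6 other cytosolic sulfotransferases looked up, 3 had an identifier, and SULT1C3 and SULT4A1 passed the filter. SULT1C2 gave 3 reads in all, from 1 pig. The gene that the symbol table names SULT1C3 (ENSSSCG00000028691) had 451 to 7566 reads per pig. Its level was 432 ± 225 CPM in High AS pigs (SD, n = 17; lowest 147, median 377, highest 1023) and 343 ± 266 CPM in Low AS pigs (SD, n = 14; lowest 78.5, median 307, highest 1191). The 2 highest pigs came from opposite AS groups, High AS control replicate 5 (1023 CPM) and Low AS control replicate 5 (1191 CPM). SULT4A1, a brain-type member for which no sulfated substrate is well established, stood at 24.8 ± 7.71 CPM (SD, n = 17) for High AS and 30.3 ± 10.03 CPM (SD, n = 14) for Low AS. Both genes were lower in numbered libraries, SULT1C3 by 0.94 (SE 0.31, edgeR adjusted p = 0.0207) and SULT4A1 by 0.66 (SE 0.16, edgeR adjusted p = 0.00279) on the log2 scale. Cell markers differed between the library sets as well: 5 of 7 tested Leydig cell markers passed as lower in numbered libraries (median of the 7 log2 differences -1.12; mean log2 CPM 5.95, range 4.96 to 6.72, against 6.76, range 5.57 to 8.09, in plain ones), and 4 of 6 peritubular cell markers passed as higher (median 0.94). Of 9 tested Sertoli cell markers 4 passed as lower (median -0.28). Over all 12076 tested genes 30.5% passed, 1774 as lower and 1912 as higher. The part of the cell markers in the SULT1C3, SULT4A1 and SLC35B2 differences was not tested.

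High and Low AS pigs were compared to ask whether pigs sorted by taint differ in these genes. None of the 3 tested members passed: 0 of 12076 genes did (0%), with 270 at an unadjusted p under 0.05, and DESeq2 and limma voom also called 0. With diet and library set in the model, PAPSS2 was 0.43 higher on the log2 scale in High AS pigs (SE 0.25, 95% interval -0.05 to 0.92), SULT1A3 was 0.51 lower (SE 0.32, interval -1.13 to 0.11) and SLC35B2 was 0.20 lower (SE 0.16, interval -0.52 to 0.12); edgeR adjusted p = 0.985 for each. The estimates thus differ in sign, and each is smaller than 2 of its standard errors. SULT1C3 was 0.54 higher (SE 0.26, edgeR unadjusted p = 0.0495) and SULT4A1 0.15 lower (SE 0.14), again with an edgeR adjusted p of 0.985. Over all alternatives and left-out pigs, 46 fits for each gene, the PAPSS2 estimate was above 0 and the SULT1A3 and SLC35B2 estimates below 0 each time, and none was called. The SLC35B2 estimate came closest to 0, at -0.05 (SE 0.19), with each sow as a block. With carcass weight added, in the 29 pigs that had one, the AS difference of SULT1A3 was -0.88 (SE 0.34, edgeR unadjusted p = 0.0158, adjusted p = 1), that of SLC35B2 -0.31 (SE 0.19) and that of SULT1C3 0.29 (SE 0.29).

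A single pig moved the PAPSS2, SULT1A3 and SULT1C3 estimates more than any other. Without Low AS control replicate 5, PAPSS2 was 0.64 higher in High AS pigs (SE 0.23, edgeR unadjusted p = 0.0088, adjusted p = 0.999) and SULT1C3 0.79 higher (SE 0.23, edgeR unadjusted p = 0.00154, adjusted p = 0.999), while SULT1A3 was 0.25 lower (SE 0.30) and SLC35B2 0.12 lower (SE 0.16). Among numbered libraries only, PAPSS2 was 0.95 higher in High AS pigs, and among plain ones 0.31 higher. But the numbered set holds just 2 Low AS pigs, both on control feed, and its 4 libraries of lane 7 are all High AS. Within diets, PAPSS2 was 0.52 higher (SE 0.33) on control feed and 0.32 higher (SE 0.37) on chicory, and SULT1A3 was 0.43 lower (SE 0.41) and 0.62 lower (SE 0.50).

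**Figure D2:**
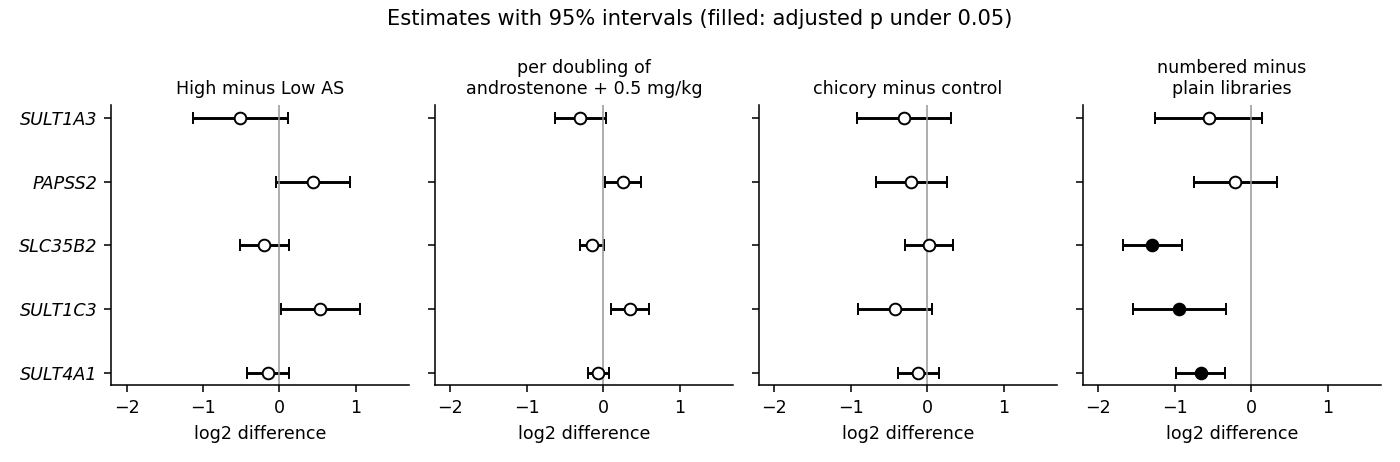
Estimated log2 differences (x axis) with 95% intervals for SULT1A3, PAPSS2, SLC35B2, SULT1C3 and SULT4A1 in 4 comparisons; filled points passed an adjusted p of 0.05. Only library set comparisons are filled (SLC35B2 at -1.29, SULT1C3 at -0.94 and SULT4A1 at -0.66), and PAPSS2 and SULT1C3 lie right of 0 and SULT1A3, SLC35B2 and SULT4A1 left of 0 for both AS group and androstenone.

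With the androstenone concentration itself the estimates had the same signs. No member passed, against 0.0227% of all tested genes (3 of 13199; 668 at an unadjusted p under 0.05). A slope is the log2 change in level for each doubling of androstenone plus 0.5 mg/kg. It was 0.26 for PAPSS2 (SE 0.12, edgeR unadjusted p = 0.0424), -0.30 for SULT1A3 (SE 0.17, edgeR unadjusted p = 0.0874) and -0.15 for SLC35B2 (SE 0.08, edgeR unadjusted p = 0.0713), each with an edgeR adjusted p of 0.852. SULT1C3 had a slope of 0.35 (SE 0.13, edgeR unadjusted p = 0.0101, adjusted p = 0.852) and SULT4A1 of -0.06 (SE 0.07). The slope and the AS comparison use the same pigs and largely the same division of them, so they are not separate evidence. With each sow as a block the SULT1A3 slope was 0.0012 (SE 0.28), the SLC35B2 slope -0.0058 (SE 0.13), the PAPSS2 slope 0.46 (SE 0.16) and the SULT1C3 slope 0.57 (SE 0.17). With carcass weight added the slope was -0.59 for SULT1A3 (SE 0.19, edgeR unadjusted p = 0.00325, adjusted p = 1), -0.26 for SLC35B2 (SE 0.09), 0.19 for PAPSS2 (SE 0.15) and 0.21 for SULT1C3 (SE 0.15). High AS chicory replicate 4, high in SULT1A3, had no carcass weight and was not in that fit. Without High AS chicory replicate 3, the pig at 5.9 mg/kg, the PAPSS2 slope was 0.17 (SE 0.14). Leaving out 1 pig took the SULT1A3 slope to between -0.42 (High AS chicory replicate 4) and -0.20 (Low AS chicory replicate 7). Over 23 plain libraries SULT1A3 and log2 androstenone had a Pearson r of -0.307 (permutation p = 0.154, adjusted p = 0.334). Spearman's rho was -0.296 (permutation p = 0.168, adjusted p = 0.352). Pearson's r was -0.043 once the 2 pigs of most extreme androstenone were dropped. It thus depended on these 2 pigs, and rho without them was not computed. The 8 numbered libraries gave a Pearson r of -0.424, and -0.744 with 2 pigs dropped.

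The 4 pigs recorded at 0 mg/kg androstenone, all Low AS with plain libraries, had PAPSS2 levels of 14.1, 16.5, 26.7 and 40.2 CPM. This is the low part of the PAPSS2 range, whose median over plain libraries was 37.5 CPM, although 1 of the 4 was above that median. Without these 4 pigs the PAPSS2 slope was 0.13 and stayed above 0. In the same pigs SULT1C3 was at 143, 159, 298 and 367 CPM.

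**Figure D3:**
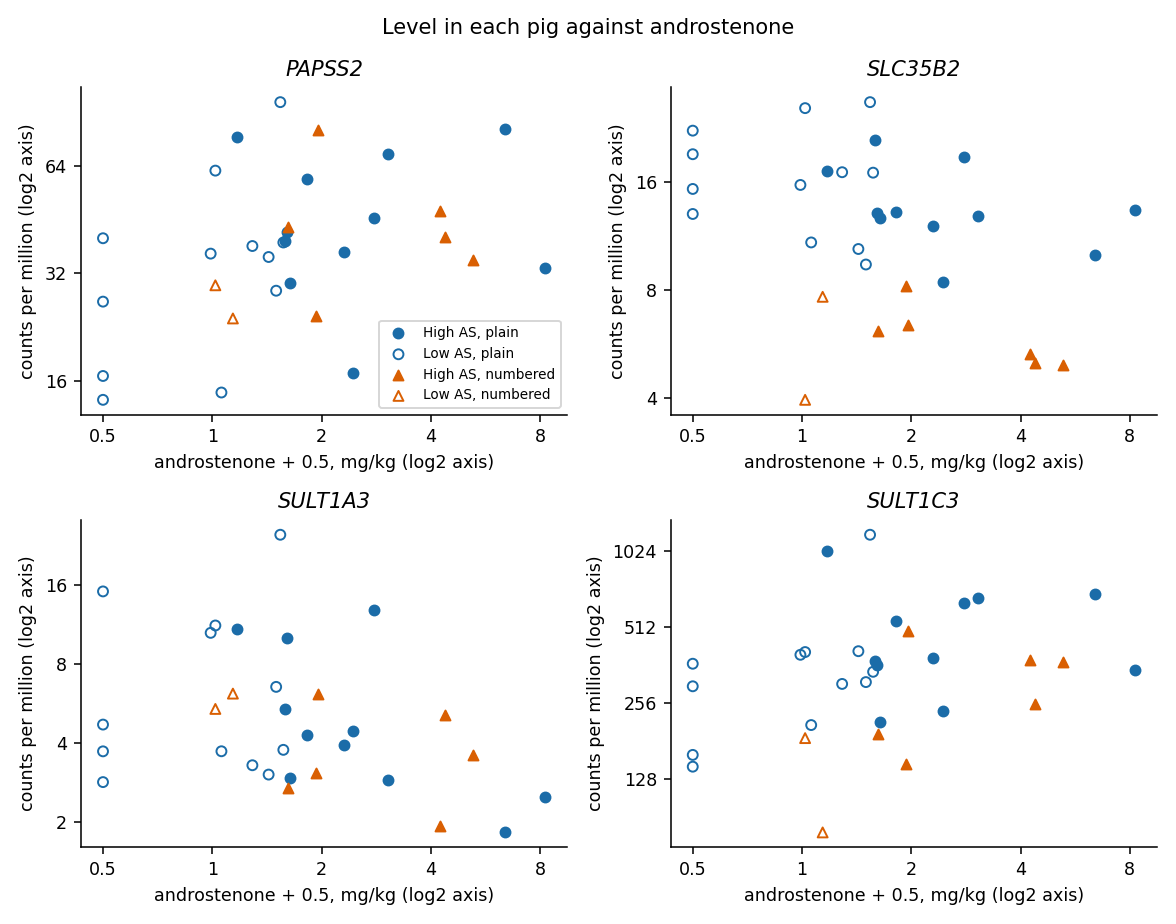
Level of PAPSS2, SLC35B2, SULT1A3 and SULT1C3 in CPM (y axis, log2) against androstenone plus 0.5 mg/kg (x axis, log2) in 31 pigs; filled symbols are High AS and open ones Low AS, circles plain and triangles numbered libraries. The 4 circles at the left edge are the pigs at 0 mg/kg, with PAPSS2 from 14.1 to 40.2 CPM, and the circle farthest right, at 7.77 mg/kg, has PAPSS2 at 33.1 CPM.

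Chicory, a feed rich in inulin that is given to lower skatole, was compared with control feed. No member differed past the threshold, and 0% of all tested genes did (0 of 12076; 91 at an unadjusted p under 0.05; DESeq2 and limma voom also 0). On the log2 scale SULT1A3 was 0.30 lower on chicory (SE 0.31), PAPSS2 0.21 lower (SE 0.24) and SLC35B2 0.02 higher (SE 0.16), each with an edgeR adjusted p of 1. The 95% intervals were -0.92 to 0.31, -0.67 to 0.25 and -0.29 to 0.33, the narrowest for SLC35B2. SULT1C3 was 0.42 lower (SE 0.25, edgeR unadjusted p = 0.0951). Without Low AS control replicate 5 the log2 difference was nearer to 0 for SULT1A3 (-0.03), PAPSS2 (-0.02) and SULT1C3 (-0.18). For SLC35B2 it was then 0.097, farther from 0. With each sow as a block the difference was 0.18 for SULT1A3, -0.0053 for PAPSS2 and -0.05 for SULT1C3. The difference of the AS effect between feeds was also tested, and again 0% of genes passed (0 of 12076; 457 at an unadjusted p under 0.05; DESeq2 also 0). Chicory minus control, that difference was -0.19 for SULT1A3 (SE 0.64), -0.21 for PAPSS2 (SE 0.49) and -0.08 for SLC35B2 (SE 0.34), edgeR adjusted p = 0.98, 0.972 and 0.98.

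Among the other genes around sulfation, no sulfatase, Golgi sulfotransferase or steroid sulfate carrier passed for AS group, within either feed, or on androstenone. Of 18 sulfatases and sulfatase-activating factors listed besides STS, 12 had an identifier and 9 were tested; 5 had a higher estimate and 4 a lower one with High AS, with a median log2 difference of 0.0127 against 0.00556 over all tested genes. The sign differed between feeds, 7 of 9 estimates being higher with High AS on control feed (median 0.14) and 7 of 9 lower on chicory (median -0.18), and 7 of 9 had a negative slope on androstenone (median -0.06). Over all tested genes the median AS difference was 0.0198 on control feed and -0.0184 on chicory. Of all tested genes 47.1% had a positive slope (median -0.0066). Of 30 membrane and tyrosine sulfotransferases, which modify heparan, chondroitin and proteins, 11 were tested; 5 were higher and 6 lower (median -0.0047), and 10 of the 14 tested for the slope had a negative one (median -0.02). All 6 tested carriers and pumps of steroid sulfates were estimated higher with High AS over both feeds (median 0.19), 5 of 6 on control feed (median 0.43) but 2 of 6 on chicory (median -0.19), and 4 of 6 had a negative slope on androstenone (median -0.04). The difference between feeds had a median of -0.62 over these 6 genes against -0.04 over all tested genes, and none passed. The 5 tested endothelial cell markers had a median AS difference of 0.56 on control feed (5 of 5 higher). On chicory it was -0.22 (2 of 5 higher). For the 9 tested Sertoli cell markers these medians were 0.17 (7 of 9 higher) and -0.53 (1 of 9 higher). For the 7 tested Leydig cell markers they were 0.36 and 0.46. None of these markers passed, and their part in the carrier estimates was not tested. SLC10A6, the uptake carrier for sulfated steroids, had a log2 difference of 0.21 (SE 0.22) and a slope of 0.15 (SE 0.11). BPNT1, which clears the nucleotide left after PAPS has given up its sulfate, was 0.32 lower (SE 0.19), HS3ST1, a heparan sulfotransferase, 0.31 lower (SE 0.26), and UST, which sulfates uronic acid in chondroitin and dermatan, had a slope of -0.15 (SE 0.11); none passed. Leaving out 1 pig took BPNT1 to -0.19 (Low AS chicory replicate 1), HS3ST1 to -0.15 (Low AS chicory replicate 2) and the UST slope to -0.24 (High AS control replicate 10).

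Steroid synthesis genes gave the only call among these lists for AS group, androstenone or feed. SRD5A1, a steroid reductase, had a slope of 0.44 on androstenone (SE 0.08, edgeR adjusted p = 0.0343), and the call held in 26 of 50 other fits, 31 of which each left out 1 pig. CYP17A1, the enzyme that turns pregnenolone and progesterone into androgen precursors and is needed for androstenone, was 0.60 higher in High AS pigs (SE 0.29, edgeR adjusted p = 0.985). CYB5R3, a cytochrome reductase, had a slope of 0.14 (SE 0.06), and HSD17B3, which makes testosterone, of -0.21 (SE 0.10), both with an edgeR adjusted p of 0.852. Of the 7 tested genes of this list, 6 had a positive slope, with a median of 0.14 against -0.01 over all tested genes.

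PAPSS2 and SULT1C3 followed the Leydig cell markers from pig to pig. Over the 24 plain libraries PAPSS2 and the mean of the 7 markers (INSL3, LHCGR, CYP17A1, CYP11A1, CYB5A, HSD17B3 and TSPO, in log2 CPM) had a Pearson r of 0.89 (permutation p = 1e-05, the smallest the permutations can give; adjusted p = 0.000257) and a Spearman rho of 0.851 (permutation p = 1e-05, adjusted p = 0.000257). Without the 2 pigs farthest from the median of the marker mean r was 0.841. The 8 numbered libraries gave r = 0.91 (exact permutation p = 0.00166, adjusted p = 0.0187) and rho = 0.929 (exact permutation p = 0.00223, adjusted p = 0.0236), and 0.926 without 2 pigs. For SULT1C3, r was 0.922 (permutation p = 1e-05, adjusted p = 0.000257) and rho 0.901 (permutation p = 1e-05, adjusted p = 0.000257) over plain libraries, and 0.952 (exact permutation p = 4.96e-05, adjusted p = 0.000893) and 0.976 (exact permutation p = 0.000397, adjusted p = 0.00549) over the 8 numbered ones. Without 2 pigs they were 0.886 and 0.836. Of 9182 genes with a symbol and a mean of at least 1 CPM, 14 had a higher r with the marker mean than PAPSS2 in plain libraries, 4 of them markers on the list, and 4 a higher r than SULT1C3, 1 of them such a marker. In this family 90 relations were computed, and adjustment was over both coefficients, 180 tests.

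Because the tissue was sequenced whole, fewer Leydig cells and less RNA per Leydig cell cannot be told apart. Over both library sets the marker mean was 6.63 ± 0.63 in High AS pigs (SD, n = 17; 5.48 to 7.82) and 6.48 ± 0.81 in Low AS pigs (SD, n = 14; 4.96 to 8.09). Among plain libraries it was 6.91 ± 0.56 (SD, n = 11) in High AS pigs and 6.65 ± 0.70 (SD, n = 12) in Low AS pigs. Among numbered ones it was 6.13 ± 0.41 (SD, n = 6) in High AS pigs and averaged 5.43 in the 2 Low AS pigs. The highest value of all pigs was that of Low AS control replicate 5, also highest in PAPSS2, SULT1A3 and SULT1C3. Of the 7 markers 5 were higher and 2 lower in High AS pigs (median log2 difference 0.41), and none passed. CYP17A1, CYP11A1, CYB5A and HSD17B3 are both in this marker mean and on the list of steroid synthesis genes. Leydig cell content and steroid synthesis can therefore not be told apart with it. With the marker mean added to the model, an alternative chosen after seeing the data, the AS difference of PAPSS2 was 0.14 (SE 0.13) and its slope 0.12 (SE 0.06), smaller than the 0.43 and 0.26 without it. The slope of SULT1C3 was 0.19 (SE 0.05, edgeR unadjusted p = 0.000426, adjusted p = 0.155). SULT1A3 moved the other way, to an AS difference of -0.77 (SE 0.26, edgeR unadjusted p = 0.00559, adjusted p = 0.276) and a slope of -0.43 (SE 0.14, edgeR unadjusted p = 0.00331, adjusted p = 0.226).

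**Figure D4:**
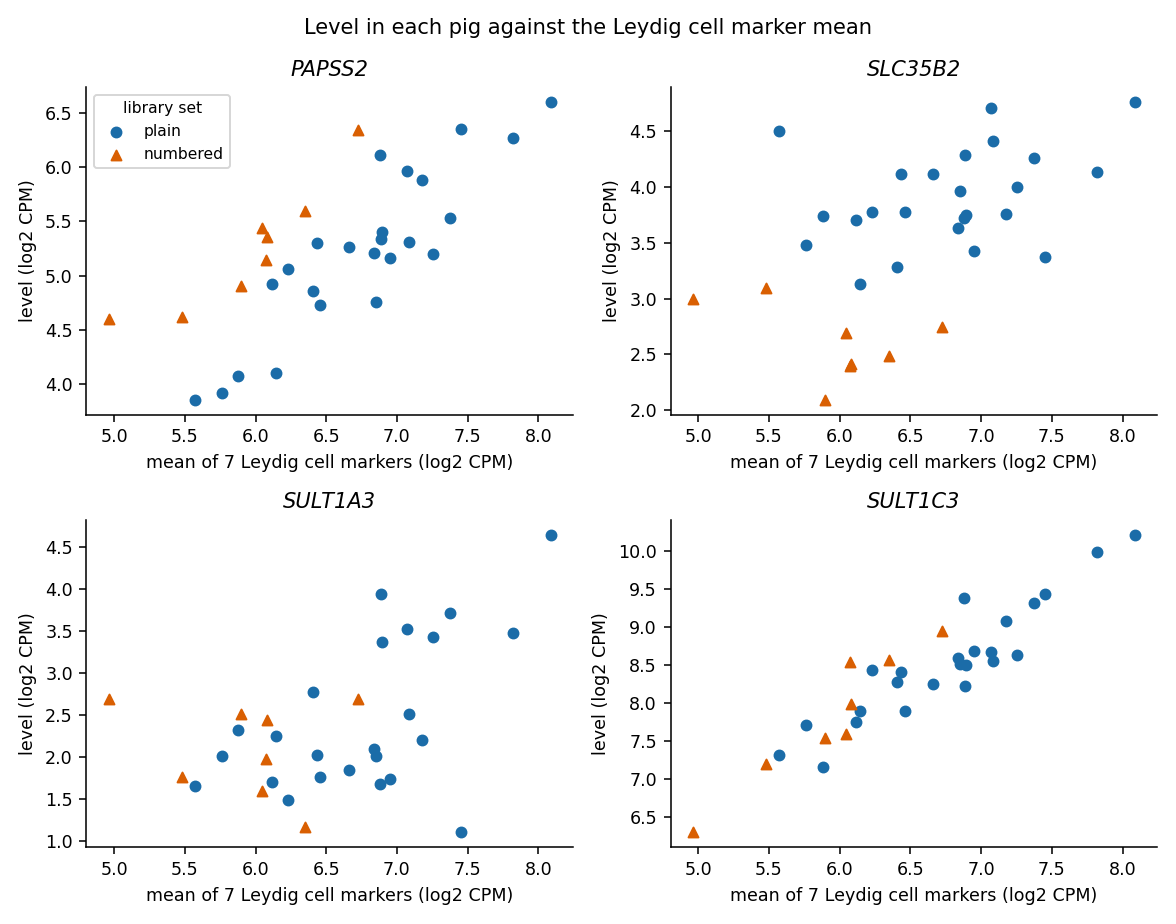
Level of PAPSS2, SLC35B2, SULT1A3 and SULT1C3 in log2 CPM (y axis) against the mean of 7 Leydig cell markers in log2 CPM (x axis) in 32 pigs; circles are plain and triangles numbered libraries. PAPSS2 and SULT1C3 rise along the x axis within both sets (r = 0.89 and 0.91, 0.922 and 0.952), while SLC35B2 and SULT1A3 have an r of 0.355 and 0.565 over plain and -0.455 and -0.181 over numbered libraries.

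SULT1A3 and SLC35B2 gave lower coefficients that differed between the library sets. SULT1A3 had an r of 0.565 with the Leydig marker mean over plain libraries (permutation p = 0.00413, adjusted p = 0.0391; rho = 0.471, permutation p = 0.022, adjusted p = 0.121), which was 0.4 without 2 pigs, and of -0.181 over the 8 numbered ones (exact permutation p = 0.665, adjusted p = 0.793; rho = -0.214, exact permutation p = 0.619, adjusted p = 0.771). SLC35B2 went with the mean of 9 Sertoli cell markers over plain libraries (r = 0.734, permutation p = 4e-05, adjusted p = 0.0008; rho = 0.718, permutation p = 0.00017, adjusted p = 0.00278; r = 0.691 without 2 pigs), but not over the 8 numbered ones (r = 0.05, exact permutation p = 0.901; adjusted p = 0.965; rho = 0, exact permutation p = 1, adjusted p = 1). Its correlation with elongating spermatid markers over plain libraries was -0.61 (permutation p = 0.00057, adjusted p = 0.00733; rho = -0.548, permutation p = 0.00669, adjusted p = 0.0502) and -0.393 without 2 pigs. Many other genes had such coefficients over plain libraries. Of 9182 genes, 473 had a higher Leydig r than SULT1A3. Against SLC35B2, 381 had a higher Sertoli r and 1197 a lower elongating spermatid r. Between members, PAPSS2 and SLC35B2 had an r of 0.332 over plain libraries (permutation p = 0.112, adjusted p = 0.28; rho = 0.337, permutation p = 0.109, adjusted p = 0.28) and PAPSS2 and SULT1A3 one of 0.379 (permutation p = 0.07, adjusted p = 0.263; rho = 0.357, permutation p = 0.0855, adjusted p = 0.263). SULT1A3 and SLC35B2 had an r of 0.557 over plain libraries (permutation p = 0.00512, adjusted p = 0.0401; rho = 0.443, permutation p = 0.0314, adjusted p = 0.157), 0.357 without 2 pigs, and of -0.026 over the 8 numbered ones (exact permutation p = 0.948, adjusted p = 0.987; rho = 0.071, exact permutation p = 0.882, adjusted p = 0.955). No gene of the 5 had a correlation with androstenone that passed within either library set.

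**Figure D5:**
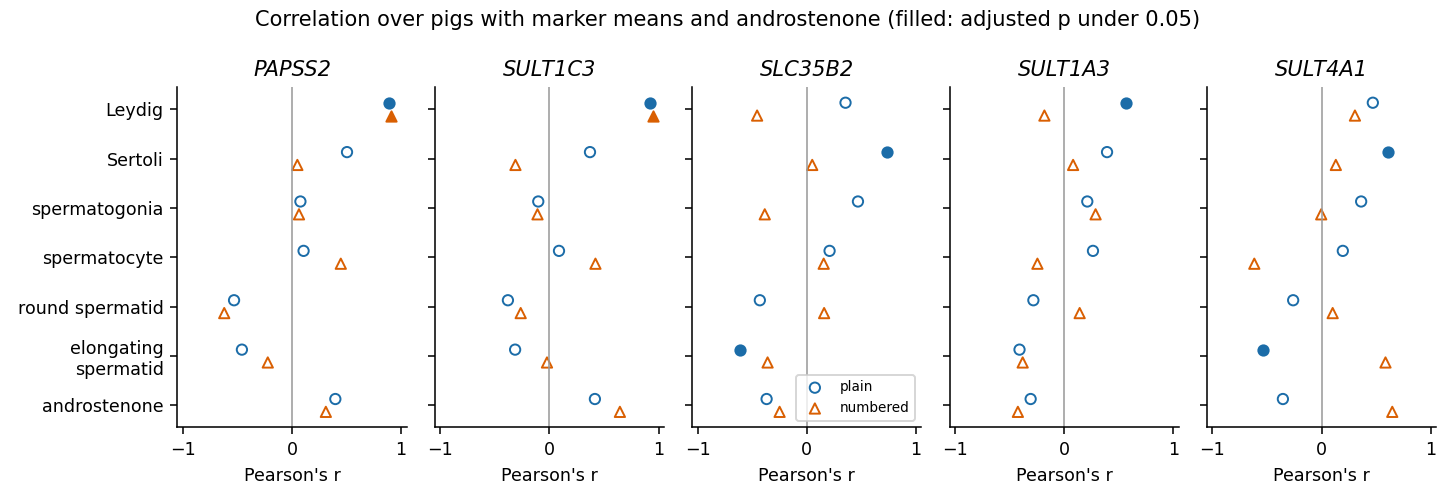
Pearson's r over pigs (x axis) between each gene and the mean of each marker list or log2 androstenone (y axis), for 24 plain (circles; 23 for androstenone) and 8 numbered libraries (triangles); filled symbols had an adjusted p under 0.05. Both symbols are filled and close together only in the Leydig row of PAPSS2 (0.89 and 0.91) and SULT1C3 (0.922 and 0.952).

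The genes whose levels were most like PAPSS2 over the 24 plain libraries were EPHX1, a microsomal epoxide hydrolase (r = 0.923), SULT1C3 (r = 0.91) and RDH11, which reduces retinal to retinol (r = 0.904). In the 8 numbered libraries, which took no part in this choice, their r with PAPSS2 was 0.842, 0.825 and 0.881. The gene most like SULT1C3 was CYP17A1, one of the Leydig cell markers, with r = 0.942 over plain and 0.943 over numbered libraries. For SULT1A3 the nearest were UFC1 (0.804), HSD11B2 (0.801) and AEBP1 (0.788), with -0.002, 0.088 and 0.354 in numbered libraries. For SLC35B2 they were AP1S1 (0.871), BEX3 (0.86) and TARBP2 (0.857), with -0.765, -0.43 and -0.558. The likeness thus recurred across library sets for PAPSS2 and SULT1C3, and not for SULT1A3 and SLC35B2. The cause of this difference was not tested.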

How the data were processed

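Messenger RNA of testis was sequenced from 32 pigs, with stranded libraries per the labels' protocols. The values used are whole-number counts per Ensembl gene identifier, deposited by the authors without normalization. Per the submitters' processing notes reads went through HTSeq 0.6.0, SAMtools 1.3.1, STAR, Trimmomatic 0.33 and cutadapt 1.8.1 (in no stated order). The build, annotation release and strand setting of the counting are not given in the sources used here; no coordinates are printed, and overlapping or antisense genes cannot be told apart. Rows of no gene (37.4% to 50.7% of the reads) stayed out. Symbols came from a table that names 11804 of the 25322 identifiers. Members and gene lists were chosen with earlier results of these data known.

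Tests used edgeR 4.0.16 in R 4.3.3 (filterByExpr, TMM, quasi-likelihood F test, Benjamini-Hochberg adjustment over all tested genes, threshold 0.05). The model of 31 pigs had terms for AS group, feed and library set; for the slope, AS group gave way to the log2 of androstenone plus 0.5 mg/kg. Standard errors (SE) are the log2 change divided by the square root of F. Correlations used log2 CPM with a prior count of 2 and Python 3.11.15, with all permutations of 8 pigs or 100000 random ones; those of SULT1C3 and SULT4A1 were added after seeing the data. Besides members, the text names the 3 genes of the listed pathways with the smallest p in each direction for AS group and for the slope, and the 3 genes most correlated with each tested member; SLC10A6 was named after its values were seen. On simulated counts the AS model recovered 86.9% of genes changed by 1 on the log2 scale, among 12076 tested, with 17 false calls beside 93 true ones at that size and 93 at a size of 2. The simulated counts held no effect of library set, sow or feed. The members' AS estimates were smaller than 1, and recovery at their sizes was not tested. Replicate numbers follow accession order and pair no pigs. Alternatives used DESeq2 1.42.0, limma 3.58.1 (voom), other filters, scalings, covariates and subsets, and left out each pig in turn. No 2 libraries of a group agreed within sampling noise over 108 pairs.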

Additional observations from a re-analysis of the deposited data

Results flagged for a closer look

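In groups of 7 or 10 pigs the highest or lowest value was flagged where its gap to the next was large against the group's range (Dixon's test at the 95% level). With 20 combinations of gene and group tested, chance would flag about 1 in 20 if CPM values were normally distributed. Whether they were was not tested, and the values were not put on the log2 scale. In all 5 were flagged, on 2 pigs. Low AS control replicate 5 stood above the other 6 pigs of its group in SULT1A3 (24.8 CPM, next 6.52), PAPSS2 (96.8 CPM, next 35.6) and SULT1C3 (1191 CPM, next 411). The genes are not independent, since 1 pig supplies all 3 values. High AS chicory replicate 4 stood above its group in SULT1A3 (12.8 CPM, next 4.44) and SULT4A1 (36.8 CPM, next 21.8). Both are plain libraries. The estimates without the Low AS pig are given with the AS comparison.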

How the results depend on the processing

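No alternative called a tested member or SULT1C3 for AS group, androstenone or diet, or SULT4A1 for AS group or androstenone. The number of genes called for AS group was 0 in every fit run, and for the interaction in its 3 alternatives. For diet it was 0 except without the filter on low counts (1). For the slope it was 3; it was 7 with DESeq2, 9 without the filter, 12 with the Leydig marker mean added, and 0 without the library set term, with the index set in its place, with carcass weight, with sow as a fixed block, in numbered libraries only, on ranks and without the pigs at 0 mg/kg. Leaving out 1 pig gave 1 to 4 calls, and the value of 1 came when High AS chicory replicate 3 or, in another fit, Low AS chicory replicate 6 was out. The cause of these shifts was not tested.

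Signs turned as follows. With sow as a fixed block, the diet difference of SULT1A3 was 0.18, its slope 0.0012 and the SULT4A1 slope 0.00055. In numbered libraries only, the AS difference was 0.22 for SULT4A1, 0.17 for BPNT1 and 0.25 for HS3ST1, and the slope 0.21 for SULT4A1 and 0.066 for BPNT1. HS3ST1 was 0.034 without the library set term, and the SULT4A1 slope 0.0055 with the index set. The diet difference of SLC35B2 was -0.091 in plain libraries and -0.049 without 2 libraries that stand apart (replicate 1 of Low AS chicory, replicate 3 of High AS control), and ranged from -0.037 to 0.097 over left-out pigs. The SULT1A3 interaction was 0.18 in plain libraries. The setting with SULT1A1 in place of summed sulfotransferases was not run, since SULT1A1 had no identifier. Replicate numbers are accession order, not pairs; pigs were blocked only by sow, in the fits with sow as a fixed block or a random effect, which called no member. Depth limits SULT2B1 (26 reads) and SULT1A3 (a median of 22 reads per pig).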
